A study of Mus musculus with 12 samples.

Results

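Axon guidance ligands and receptors were followed across 12 RNA sequencing libraries of sorted mouse hypothalamic cells. The genes were chosen by symbol, as the members of the semaphorin, plexin, neuropilin, slit, robo, ephrin, Eph, netrin, Unc5 and Dcc families, and 69 of the 55809 symbols in the count tables matched. They comprised 35 ligands and 34 receptors.

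The libraries formed 4 groups of 3. TOM positive and TOM negative cells came from the hypothalamus of untreated Mc4r-Cre; Ai14 mice aged 4 weeks. In these mice Cre is made where the Mc4r gene is used, and the Ai14 allele then marks the cell and its progeny permanently with tdTomato (TOM). The other groups came from the paraventricular nucleus (PVH), at an age of 26 weeks, of mice with the genotype Otp fl/fl; Ai14, 12 weeks after they received adeno-associated virus (AAV). AAV-Cre, whose recombinase can delete floxed Otp and switch on Ai14, was followed by a sort for TOM, and AAV-GFP by a sort for GFP. The AAV groups therefore differed in the reporter they were sorted on, and Cre was delivered to AAV-Cre mice only. All 12 libraries carried Ai14, both AAV groups carried floxed Otp, and which promoter each virus used is not stated in the labels. Whether a group's libraries came from separate animals is not stated either, so p-values measure the spread between libraries, which may be technical.

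Axon guidance genes encode secreted or membrane cues and the surface receptors that read them, and they steer growing axons by attraction or repulsion. Semaphorins act through plexins, with neuropilins as co-receptors for most secreted class 3 members. Slits act through robos, netrins through Dcc and Unc5 receptors, and ephrins through Eph receptor kinases. In the mature brain the same families are also used by glia, vessels and synapses.

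Library totals ran from 13506018 to 27827853 counts, and the 69 genes took 0.169% to 0.229% of the counts in TOM positive, 0.091% to 0.173% in TOM negative, 0.147% to 0.183% in AAV-Cre and 0.0671% to 0.155% in AAV-GFP libraries. Otp, the gene floxed in the AAV mice, had 12, 9 and 10 counts in AAV-Cre replicates 1, 2 and 3 and 91, 102 and 38 counts in the AAV-GFP ones. Its groups were separate, with a log2 fold change of -2.84 ± 0.87 (SE, edgeR adjusted p = 0.134), and which exons the deletion removes is not stated. Mc4r, the gene that drives Cre in the TOM mice, had 63, 0 and 0 counts on the TOM positive side and 0 in each TOM negative library. Markers of the sorted cells were mixed. A list of 17 neuronal markers took 0.0595% to 0.0748% of counts in TOM positive and 0.0111% to 0.0116% in TOM negative libraries, against 0.279% to 0.334% after AAV-Cre and 0.16% to 0.262% after AAV-GFP. A list of 12 oligodendrocyte markers took 9.24% to 10.4%, 2.21% to 2.81%, 5.78% to 7.31% and 1.51% to 4.97% in the same order. All 12 oligodendrocyte markers and all 17 neuronal markers were counted in every group. In such bulk libraries, fewer cells of a type and less RNA per cell cannot be told apart.

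**Figure D1:**
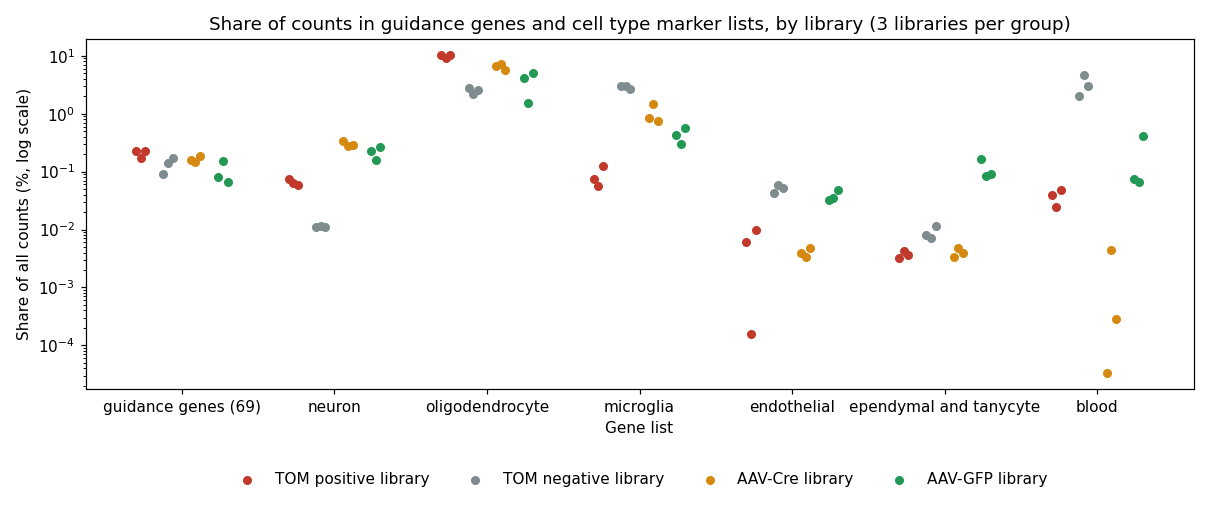
Share of all counts (percent, logarithmic axis) held by the 69 guidance genes and by lists of cell type markers, with each point standing for 1 library and colours for the 4 groups. Oligodendrocyte markers sit between 9.24% and 10.4% in TOM positive libraries, above the 2.21% to 2.81% of TOM negative ones, while endothelial markers are lower in TOM positive than in TOM negative and lower after AAV-Cre than after AAV-GFP.

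Of the 69 genes, 59 had an entry in a RefSeq promoter table on the GRCm38.p6 build, with 75 starts in all. The 250 bases before the start are printed for 4 of them. Plxnb3 is shown because it passed the test in both comparisons, Sema5a because its fold change in TOM positive cells was among the highest of the genes that passed, and Robo4 and Sema3c because their counts were 0 after AAV-Cre. Capitals mark ACAAAG, a core of SOX factor sites, and CAGCTG, an E-box, each searched on both strands along with TAATTA, a homeodomain core. Positions are chrX:73756853-73757102 on the plus strand for Plxnb3, chr15:32244563-32244812 on the plus strand for Sema5a, chr9:37401722-37401971 on the plus strand for Robo4, and chr5:17574566-17574815 on the plus strand for Sema3c.
Plxnb3: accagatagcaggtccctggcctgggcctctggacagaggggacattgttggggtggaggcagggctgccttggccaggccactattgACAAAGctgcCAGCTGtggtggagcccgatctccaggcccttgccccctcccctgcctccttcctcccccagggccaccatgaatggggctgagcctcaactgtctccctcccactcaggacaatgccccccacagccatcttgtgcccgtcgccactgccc
Sema5a: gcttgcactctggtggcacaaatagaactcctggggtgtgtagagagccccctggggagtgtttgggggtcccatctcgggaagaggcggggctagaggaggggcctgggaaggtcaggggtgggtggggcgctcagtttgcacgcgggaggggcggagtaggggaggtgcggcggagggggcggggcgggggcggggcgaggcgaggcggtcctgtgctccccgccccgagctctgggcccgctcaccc
Robo4: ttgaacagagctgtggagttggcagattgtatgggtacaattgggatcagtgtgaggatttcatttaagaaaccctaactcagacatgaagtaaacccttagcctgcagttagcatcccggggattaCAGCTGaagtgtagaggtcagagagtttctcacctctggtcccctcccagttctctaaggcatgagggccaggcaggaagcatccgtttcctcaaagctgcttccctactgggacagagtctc
Sema3c: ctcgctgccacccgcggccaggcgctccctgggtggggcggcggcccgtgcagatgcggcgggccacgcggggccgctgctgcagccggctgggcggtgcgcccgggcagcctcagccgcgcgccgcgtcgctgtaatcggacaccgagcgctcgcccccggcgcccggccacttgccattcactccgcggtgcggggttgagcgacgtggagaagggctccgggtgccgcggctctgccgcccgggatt
The Plxnb3 stretch holds ACAAAG and CAGCTG close together and the Robo4 stretch holds CAGCTG. The Sema5a and Sema3c stretches, with G or C at 72% and 78.4% of bases, hold none of the 3 motifs. Over all 75 guidance promoters, 9.33% held ACAAAG, 16% held CAGCTG and 4% held TAATTA, against 16.5%, 13% and 4.84% of 32851 promoters in the table. The median content of G or C was 64.4% over the guidance promoters and 52.4% over all. The part of base content in the motif shares was not tested.

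The genes spanned a wide range of levels, set out per library in the heat map. Levels between genes are compared as CPM (counts scaled to a common library total, adjusted by TMM factors) per kilobase of exon. Efnb3, the ephrin-B3 ligand, had the highest mean level in all 4 groups. It stood at 111 ± 14.1 in TOM positive, 48.5 ± 13.02 in TOM negative, 71.3 ± 15.6 in AAV-Cre and 21.4 ± 11.4 in AAV-GFP libraries (SD, n = 3 each). Next in TOM positive libraries came Sema4d, at 53.0 ± 10.02, whose range did not reach that of Efnb3. Efna2 at 27.4 ± 3.02 and Sema4a at 27.0 ± 3.77 followed, and they differed by less than their spread. In TOM negative libraries Sema4a at 39.2 ± 5.48, Efna2 at 31.3 ± 8.93 and Sema4d at 30.6 ± 9.04 were within each other's spread. Their spreads also overlapped that of Efnb3. After AAV-Cre, Plxnb3 was second at 25.4 ± 3.63, followed by Efna1 at 21.0 ± 3.31 and Sema4d at 20.6 ± 1.94, which overlapped. After AAV-GFP, Efna1 at 13.6 ± 7.14 and Plxnb2 at 13.5 ± 8.74 followed Efnb3, with spreads that overlapped that of Efnb3 too.

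At the other end, 44 of the 69 genes were counted in all 3 TOM positive libraries, 51 in all TOM negative, 46 in all AAV-Cre and 60 in all AAV-GFP libraries. None of the 69 had 0 counts in all 12 libraries. Epha3, Epha6, Robo3 and Sema3a were counted in AAV-GFP libraries alone, with at most 21 counts in a library. The receptor gene Epha8 and the netrin gene Ntn5 had 0 counts in all 6 TOM libraries. Each AAV-GFP library also had fewer genes without a count than any other library, 31907 to 35031 of all symbols against 38821 to 41062 after AAV-Cre. The part of this difference in the genes at 0 was not tested.

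**Figure D2:**
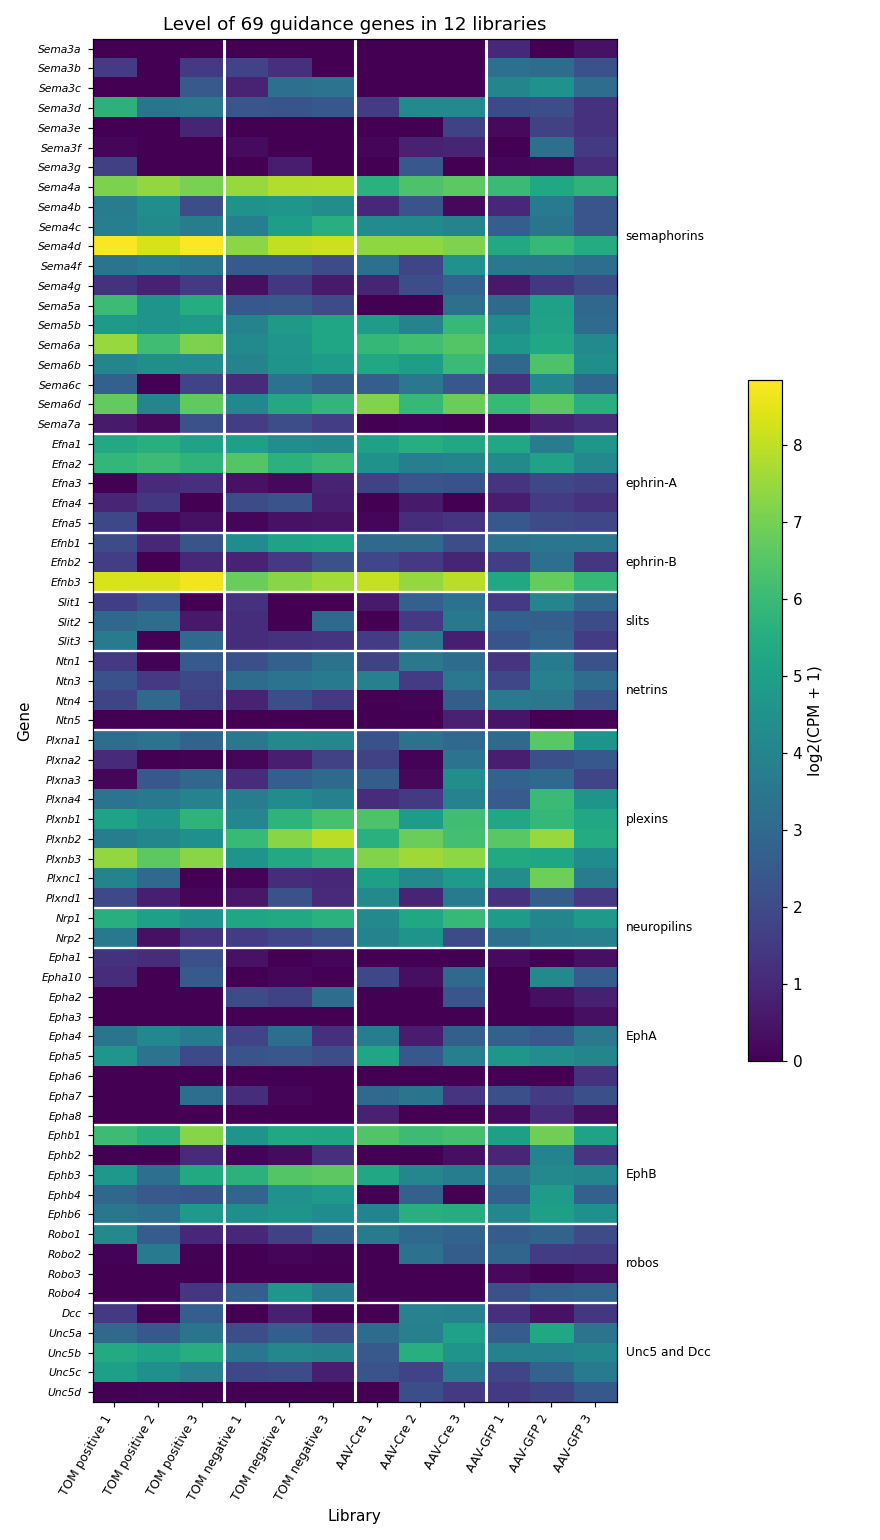
Level of each of the 69 guidance genes, as log2(CPM + 1) by colour, in the 12 libraries (columns, 3 per group), with genes in rows grouped by family. Efnb3, Sema4d, Sema4a and Plxnb3 form bright rows. Epha3, Epha6, Robo3 and Sema3a are at 0 outside the AAV-GFP columns and at most 1.47 CPM within them.

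The first comparison asked which guidance genes set TOM positive cells apart from TOM negative cells. Sema5a, Sema6a, Sema3d, Efnb3, Plxnb3, Unc5b and Unc5c were higher in TOM positive cells, and Efnb1, Plxnb2 and Epha2 were lower. Of the 69 genes, 54 passed the filter on low counts and were tested with edgeR, and 10 passed the threshold of 0.05 on the adjusted p. That was 18.5% of those tested, below the 23.9% of all 15228 genes that passed. Of the 54 tested, 7 were called higher and 3 lower, against 1589 (10.4%) and 2046 (13.4%) of the 15228 genes. The median log2 fold change was -0.01, against -0.02 over all genes tested. Setting Epha2 at its lower bound could not move this median, as Epha2 lies far below it either way. Without scaling factors, fold changes of all genes shifted by 0.26 and the calls over all genes went from 1589 higher and 2046 lower to 2204 higher and 1532 lower, while those of guidance genes became 10 higher and 3 lower. For 22 of the 54 genes the groups were separate, 13 with TOM positive libraries above and 9 below, where 46.4% of all genes tested were separate, 20.7% above and 25.6% below.

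Among the semaphorins, 3 of 16 tested rose and 0 fell, where 10.4% of all genes tested were called higher and 13.4% lower. Sema5a (chromosome 15, 32244956 to 32696487, plus strand, in the GENCODE vM30 annotation used in the files, as for every gene below), a membrane semaphorin with thrombospondin repeats, measured 65.3, 23.2 and 44.0 CPM in TOM positive replicates 1, 2 and 3 and 4.37, 4.59 and 3.16 CPM in the TOM negative ones. Every TOM positive library was several times above every TOM negative one. The log2 fold change was 3.45 ± 0.46 (SE, edgeR adjusted p = 0.00278). Sema6a (chromosome 18, 47368665 to 47501937, minus strand), a transmembrane semaphorin that signals through class A plexins, measured 178, 68.9 and 136 CPM against 17.2, 23.7 and 36.2 CPM. The groups were separate and the fold change was 2.31 ± 0.42 (edgeR adjusted p = 0.00894). It passed in 5 of 6 fits with 1 library left out and not without TOM negative replicate 2 (edgeR adjusted p = 0.0538).

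Sema3d (chromosome 5, 12433352 to 12638915, plus strand), a secreted class 3 semaphorin, measured 50.7, 9.80 and 10.6 CPM with 4.07, 3.92 and 4.44 CPM on the TOM negative side. TOM positive replicate 1 stood far above the other TOM positive libraries, which were themselves above all TOM negative ones. The fold change was 2.51 ± 0.72 (edgeR adjusted p = 0.043), and 1.30 without TOM positive replicate 1 (edgeR adjusted p = 0.151). Sema3d also lost its call without any 1 of the TOM negative libraries (edgeR adjusted p of 0.111 to 0.144), and with voom and quality weights (adjusted p = 0.0766).

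Sema4d and Sema4a, the semaphorins with the highest levels, did not pass with edgeR but did with DESeq2 (adjusted p of 0.0164 and 0.0218) and with voom and quality weights (0.0202 and 0.0135). Sema4d measured 443, 319 and 460 CPM against 157, 260 and 289 CPM, groups that did not overlap, with a fold change of 0.79 ± 0.26 (edgeR adjusted p = 0.0653). Sema4a, a membrane semaphorin also known from immune cells, measured 135, 169 and 133 CPM against 178, 224 and 234 CPM. Its groups did not overlap either, with the TOM negative libraries above, and the fold change was -0.54 ± 0.18 (edgeR adjusted p = 0.0656). Without scaling factors the Sema4a fold change was -0.28 (edgeR adjusted p = 0.321). Sema4d and Sema4a each passed in 1 of 6 fits with 1 library left out. Sema4f had a fold change of 1.27 ± 0.50 with separate groups (edgeR adjusted p = 0.109), and also passed with DESeq2 and with voom and quality weights. It passed in 0 of 6 fits with 1 library left out. The other 10 semaphorins tested ranged in fold change from -2.03 for Sema3c to 0.99 for Sema6d.

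The ephrin-B ligands moved in opposite directions. Efnb3 (chromosome 11, 69444918 to 69451031, minus strand) measured 326, 331 and 406 CPM against 113, 154 and 196 CPM, a fold change of 1.20 ± 0.22 (edgeR adjusted p = 0.00990). It lost its call only without TOM negative replicate 2 (edgeR adjusted p = 0.055). Efnb1 (chromosome X, 98179736 to 98192597, plus strand) measured 3.12, 0.986 and 3.92 CPM against 18.6, 32.9 and 36.3 CPM. All TOM positive libraries were far below all TOM negative ones, and the fold change was -3.45 ± 0.61 (edgeR adjusted p = 0.00823). Efnb2, the third ephrin-B, stayed under 4 CPM in every TOM library and had overlapping groups. None of 4 ephrin-A ligands passed with edgeR. Efna1 had a fold change of 0.78 ± 0.31 with separate groups (edgeR adjusted p = 0.115), and passed with voom and quality weights but not with DESeq2. It passed in 0 of 6 fits with 1 library left out. Efna2, the ephrin-A with the highest level in both groups, had -0.19 ± 0.25 with overlapping groups.

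Of the other ligands, none of the 3 slits and none of the 3 netrins tested passed with edgeR. Slit3 had the highest level per kilobase of the slits in both groups, yet its TOM positive libraries ran from 0.0340 to 11.6 CPM. Ntn3 measured 3.63, 1.77 and 2.82 CPM against 7.69, 9.33 and 11.2 CPM, groups that did not overlap, with a fold change of -1.78 ± 0.58 (edgeR adjusted p = 0.0630). Ntn3 did pass with DESeq2 (adjusted p = 0.00175) and with voom and quality weights (adjusted p = 0.0293). Ntn4, a netrin of basement membranes, had the highest level per kilobase of its family in TOM positive libraries, at 1.08 ± 0.775, and Ntn3 in TOM negative ones, at 1.84 ± 0.341.

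Of 9 plexins, 1 rose and 1 fell, where 10.4% of all genes tested were called higher and 13.4% lower. Both plexins were from class B, whose known ligands are class 4 and 5 semaphorins. Plxnb3 (chromosome X, 72800696 to 72816120, plus strand), which encodes a receptor for Sema5a, measured 171, 96.5 and 156 CPM against 23.1, 39.5 and 53.2 CPM. The groups were separate, with a fold change of 1.87 ± 0.36 (edgeR adjusted p = 0.0105), and the call was lost only without TOM negative replicate 2 (edgeR adjusted p = 0.0566). Plxnb2 (chromosome 15, 89039752 to 89064991, minus strand) measured 12.1, 15.7 and 20.6 CPM against 63.5, 152 and 245 CPM. The TOM negative libraries varied among themselves, but all lay above the TOM positive ones, and the fold change was -3.25 ± 0.50 (edgeR adjusted p = 0.00475). Plxnb1, the remaining class B plexin, had overlapping groups and a fold change of -0.40 ± 0.56. Neither neuropilin passed, and Nrp1, the more abundant per kilobase, had a fold change of -0.31 ± 0.33.

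Receptors of netrins were higher in TOM positive cells for 2 of 4 tested, where 10.4% of all genes tested were called higher. Unc5c (chromosome 3, 141170977 to 141540685, plus strand), which mediates repulsion from netrin, measured 30.7, 20.5 and 14.3 CPM against 2.66, 3.05 and 0.686 CPM. The groups were far apart, with a fold change of 3.36 ± 0.68 (edgeR adjusted p = 0.0124). An antisense gene model shares 118 of its 19135 exon bases. Unc5b (chromosome 10, 60598372 to 60667360, minus strand), which is also known from vessels, measured 41.5, 33.9 and 44.2 CPM against 10.1, 16.1 and 14.4 CPM, a fold change of 1.56 ± 0.30 (edgeR adjusted p = 0.0110). Unc5a and Dcc had overlapping groups, and Dcc, the attractive netrin receptor, was counted in 2 of 3 TOM positive libraries and 1 of 3 TOM negative ones.

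Of 8 Eph receptors tested, 1 fell and 0 rose with edgeR, where 13.4% of all genes tested were called lower and 10.4% higher. Epha2 (chromosome 4, 141028551 to 141056695, plus strand), an Eph kinase known from epithelia and vessels, was at 0 counts throughout the TOM positive libraries and at 62, 48 and 173 counts in the TOM negative ones. It was at least 119-fold lower, against a floor of 3 counts over the TOM positive group and by counting error alone (edgeR adjusted p = 0.0101). Epha2 passed the filter on low counts through the TOM negative libraries alone. Over all 55809 symbols, 34885 had 0 counts in every TOM positive library and 33317 in every TOM negative one. Without TOM negative replicate 3 the bound was 71.4, and without TOM positive replicate 2 or 3 it was 75.0 or 73.9. Ephb1 measured 65.2, 45.2 and 152 CPM against 22.7, 37.5 and 35.7 CPM, separate groups with a fold change of 1.45 ± 0.46 (edgeR adjusted p = 0.0608), and 0.78 without TOM positive replicate 3, the highest library. Ephb3 measured 25.4, 8.30 and 40.2 CPM against 50.9, 87.7 and 98.0 CPM, separate in the opposite direction (fold change -1.68 ± 0.55, edgeR adjusted p = 0.0652). Epha1 and Epha4 also had separate groups, with fold changes of 3.75 ± 1.40 and 1.64 ± 0.75 (edgeR adjusted p of 0.0977 and 0.167). Epha1 had 28, 34 and 106 counts against 7, 0 and 2. With 1 library left out, its fold change ran from 3.09 (without TOM positive replicate 3) to 5.31 (without TOM negative replicate 1). That of Epha4 ran from 1.19 (without TOM negative replicate 3) to 2.71 (without TOM negative replicate 2). Each passed in 0 of these 6 fits. With DESeq2 and with voom and quality weights, Ephb1 and Epha1 passed as higher and Ephb3 as lower. Ephb1 and Ephb3 each passed in 1 of 6 fits with 1 library left out. Among the robos, Robo4, a receptor of endothelial cells, had 0, 0 and 50 counts against 108, 480 and 270 counts, with a fold change of -4.59 ± 1.79 (edgeR adjusted p = 0.109), and passed only without TOM positive replicate 3 or with DESeq2. Robo1 had overlapping groups.

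**Figure D3:**
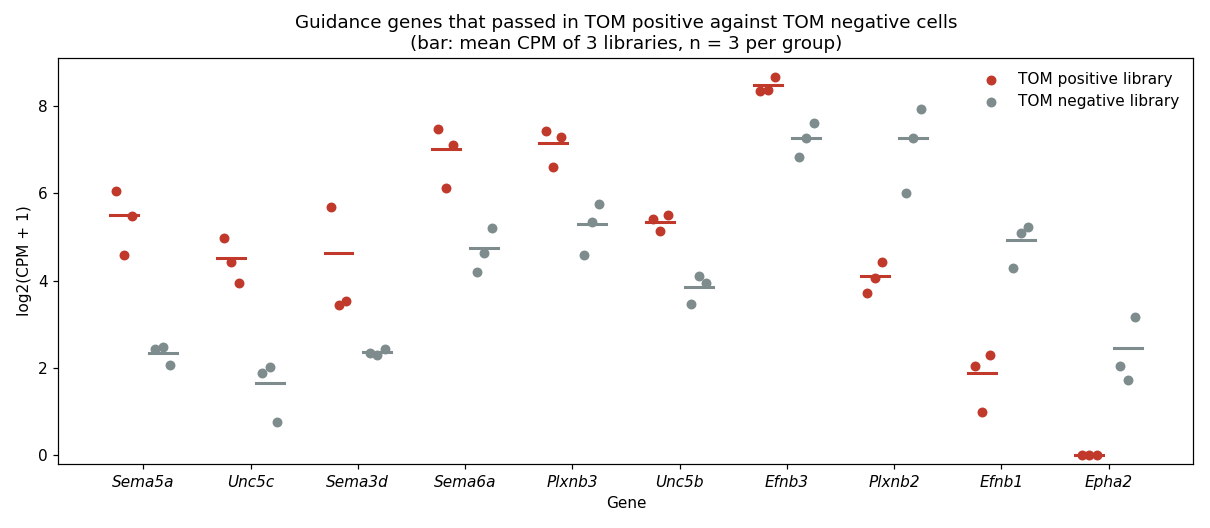
Levels, as log2(CPM + 1), of the 10 guidance genes that passed in TOM positive (red) against TOM negative (grey) cells, with each point a library and each bar the mean of 3. All 10 genes have groups that do not overlap, Epha2 lies at 0 in the 3 TOM positive libraries, and 1 TOM positive library of Sema3d, at 50.7 CPM, stands above the others.

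Several marker lists differed between the same groups, where 23.9% of all genes passed, 10.4% as higher and 13.4% as lower. All 12 tested oligodendrocyte markers had a fold change above 0 and 10 rose, and 4 of 8 precursor markers rose. Of 17 neuronal markers 8 rose. All 13 microglial markers fell, from 2.72% to 3.06% of counts in TOM negative to 0.0574% to 0.126% in TOM positive libraries. Of 12 endothelial markers 4 fell, from 0.0421% to 0.0596% to 0.000157% to 0.00968%, and none of the 12 was at 0 in all TOM positive libraries. Of 5 blood markers 5 fell, as did 3 of 12 astrocyte, 3 of 9 mural and fibroblast and 2 of 7 ependymal and tanycyte markers. The part of these cell types in the guidance gene differences was not tested. With marker genes of microglia, vessels, blood and oligodendrocytes and mitochondrially encoded genes left out of the fit, 10 guidance genes passed, 7 higher and 3 lower. Leaving these genes out can change the scaling but not the cells in a library, so it does not bear on cell types.

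Further lists covered the rest of the pathway. Among 31 tested other guidance ligands, receptors and adhesion molecules, 8 rose and 2 fell, where 10.4% of all genes were called higher and 13.4% lower. Ptprd, a receptor phosphatase, had a mean of 292 ± 38.1 CPM against 31.8 ± 13.02 CPM (SD, n = 3 each), a fold change of 3.20 ± 0.31 (edgeR adjusted p = 0.000797). The others among the 5 with the smallest p were Cntn1, Omg, Nfasc and Rtn4. Of these, Omg and Rtn4 encode myelin-associated inhibitors of axon growth, and Cntn1 and Nfasc encode adhesion molecules of the node of Ranvier and its flanks. Those that fell were Rgmb, a ligand of neogenin, and Rtn4rl1, a receptor of the Nogo receptor family, with fold changes of -1.49 ± 0.24 and -4.99 ± 1.21. Among 56 intracellular effectors, 14 rose and 7 fell, against the same background. Pak3, a kinase downstream of Rac, had a fold change of 4.06 ± 0.47, Mical3, a plexin-linked oxidoreductase, 2.99 ± 0.33, and Fyn, a kinase that acts downstream of several guidance receptors, 1.65 ± 0.17. Chn2, a Rac inhibitor, had a fold change of 1.79 ± 0.20. Evl and Vasp, members of one actin regulator family, had fold changes of -2.54 ± 0.19 and -2.76 ± 0.28, and Srgap2, Ngef and Vav2 were also lower.

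The second comparison asked how guidance genes in the PVH differed with the virus received. Plxnb3 and Sema4d were higher after AAV-Cre, and Sema3b, Sema3c and Robo4, all with 0 counts in every AAV-Cre library, were lower. Over all 55809 symbols, 36130 had 0 counts in every AAV-Cre library and 29448 in every AAV-GFP library. The 5 guidance genes called were 8.62% of 58 tested with edgeR, against 2.6% of all 15408 genes tested. The background was 0.63% for genes called higher and 1.97% for genes called lower. The median log2 fold change was 0.13, against -0.16 over all genes tested. Setting genes at 0 at their lower bounds could not move this median, as they lie far below it either way. For 13 of the 58 genes the groups were separate, 6 with AAV-Cre libraries above and 7 below, where 28.5% of all genes tested were separate, 9.87% above and 18.6% below. None of the 5 calls held when AAV-GFP replicate 1, 2 or 3 was left out, where edgeR called 0 guidance genes (11, 10 and 9 of them had an unadjusted p under 0.05), and 0, 2 and 0 genes in all (2609, 2880 and 2342 at an unadjusted p under 0.05). Without AAV-Cre replicate 1, 2 or 3, edgeR called 4, 1 and 1 guidance genes. DESeq2 on all 6 libraries called 10.

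Plxnb3 measured 144, 190 and 162 CPM after AAV-Cre and 40.1, 35.9 and 18.7 CPM after AAV-GFP. Every AAV-Cre library was more than 3 times above every AAV-GFP one, with a fold change of 2.38 ± 0.36 (edgeR adjusted p = 0.0260, and 0.0413 to 0.125 with 1 library left out). It was the only guidance gene to pass in both comparisons with edgeR, among 50 tested in both. With DESeq2, Sema4d, Efnb3, Sema6a and Robo4 also passed in both. Sema4d (chromosome 13, 51839565 to 51947783, minus strand), a membrane semaphorin that binds Plxnb1, measured 167, 167 and 141 CPM against 40.9, 59.8 and 42.7 CPM. The groups were separate, with a fold change of 1.73 ± 0.27 (edgeR adjusted p = 0.0283, and 0.0562 to 0.135 with 1 library left out).

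Efnb3 and Sema6a had separate groups in the same direction but did not pass. Efnb3 measured 268, 172 and 241 CPM against 38.0, 108 and 58.5 CPM, a fold change of 1.73 ± 0.42 (edgeR adjusted p = 0.0666). Sema6a measured 58.8, 71.4 and 87.7 CPM against 25.0, 37.2 and 17.4 CPM, a fold change of 1.45 ± 0.36 (edgeR adjusted p = 0.0720). Both passed with voom and quality weights and with DESeq2. Sema4c had separate groups as well, with a fold change of 1.43 ± 0.55 (edgeR adjusted p = 0.212), and passed only with DESeq2. Robo1 had separate groups too, at 0.79 ± 0.67 (edgeR adjusted p = 0.589). Oligodendrocyte markers took 6.69%, 7.31% and 5.78% of counts in AAV-Cre replicates 1, 2 and 3 and 4.11%, 1.51% and 4.97% in the AAV-GFP ones. Of 12 tested 2 rose, where 0.63% of all genes were called higher. Microglial markers took 0.752% to 1.49% against 0.299% to 0.566%. The part of these cells in the rise of Plxnb3 and Sema4d was not tested.

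The genes that were lower were 2 secreted semaphorins and a vascular receptor. Sema3c (chromosome 5, 17779279 to 17935266, plus strand), a class 3 semaphorin known for vessel and heart development, was at 0 counts throughout the AAV-Cre libraries and at 298, 292 and 114 counts in the AAV-GFP ones. It was at least 225-fold lower against a floor of 3 counts over the AAV-Cre group, by counting error alone (edgeR adjusted p = 0.0261). Sema3b (chromosome 9, 107474873 to 107486428, minus strand), another class 3 semaphorin, had 0 counts against 161, 107 and 52 and was at least 102-fold lower (edgeR adjusted p = 0.0405). Robo4 (chromosome 9, 37313193 to 37326411, plus strand) had 0 counts against 70, 76 and 91 and was at least 75.6-fold lower (edgeR adjusted p = 0.0422). Sema3c, Sema3b and Robo4 passed the filter on low counts through the AAV-GFP libraries alone. Leaving out AAV-Cre replicate 1, the deepest of that group, lowered the bounds to 145, 66.0 and 48.9. The loss of replicate 2 gave 152, 68.9 and 51.0 and that of replicate 3 gave 152, 69.3 and 51.3.

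Vascular, ependymal and blood markers were lower in the same libraries. Endothelial markers took 0.00339% to 0.00481% of counts after AAV-Cre and 0.0322% to 0.0484% after AAV-GFP. Of 11 tested 2 fell, where 1.97% of all genes were called lower, and 10 had a fold change below 0 and 1 above. Of the 12 listed, 3 (Tie1, Cdh5 and Emcn) had 0 counts in every AAV-Cre library. Ependymal and tanycyte markers took 0.00342% to 0.00476% against 0.0843% to 0.168%. Against the same background of 1.97%, 5 of 7 fell, with Rax at 0 in every AAV-Cre library. Blood markers took at most 0.00438% after AAV-Cre and 0.0671% to 0.415% after AAV-GFP. The part of these cells in the lower Sema3b, Sema3c and Robo4 counts was not tested. In the other experiment, the share of endothelial markers and the Robo4 counts lay lower in TOM positive libraries without overlap, while Sema3b and Sema3c had overlapping groups there.

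**Figure D4:**
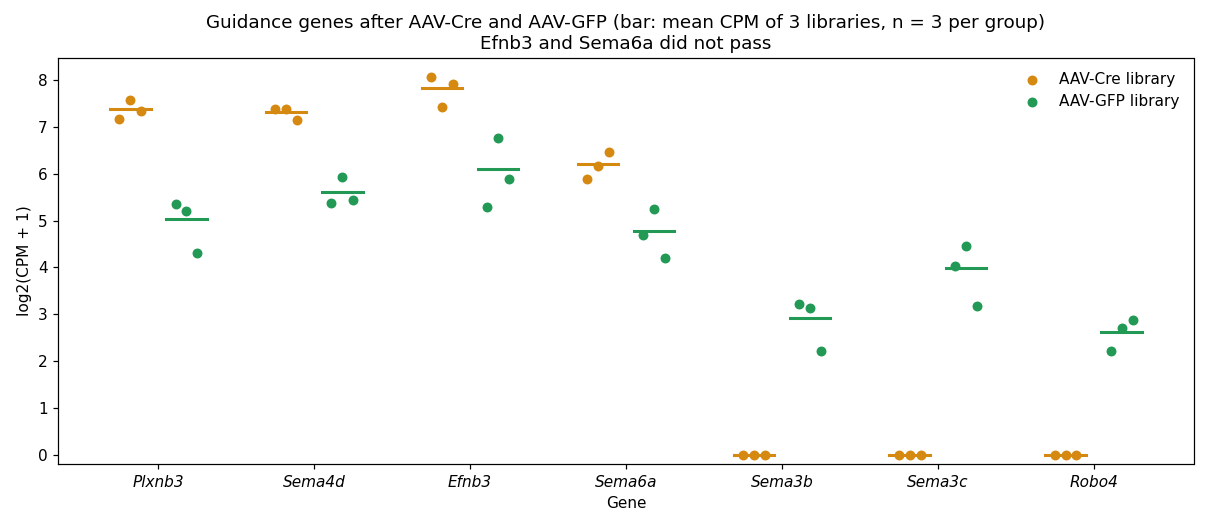
Levels, as log2(CPM + 1), after AAV-Cre (orange) and AAV-GFP (green) for the 5 guidance genes that passed and for Efnb3 and Sema6a, which did not, with each point a library and each bar the mean of 3. Sema3b, Sema3c and Robo4 lie at 0 in the AAV-Cre libraries, and Plxnb3 lies between 144 and 190 CPM there against 18.7 to 40.1 CPM after AAV-GFP.

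Most other families did not separate the AAV groups. None of 4 ephrin-A and 3 ephrin-B ligands, 3 slits, 3 netrins, 2 neuropilins, 9 Eph receptors and 5 netrin receptors tested passed with edgeR. Within them, Efna5 and Efnb1 lay lower after AAV-Cre without overlap, with fold changes of -1.79 ± 1.08 and -0.73 ± 0.62 (edgeR adjusted p of 0.428 and 0.592). Ephb2 and Ephb4 also lay lower without overlap, and Ephb2 passed only with DESeq2. Their fold changes were -5.89 ± 1.92 and -2.80 ± 1.93 (edgeR adjusted p of 0.154 and 0.499). AAV-GFP replicate 2 weighed on these values, with 206 and 385 counts of Ephb2 and Ephb4 against 18 and 110 in replicate 1 and 23 and 81 in replicate 3. Without it the fold changes were -3.71 and -1.61. That library was the highest of its group for 39 of the 69 genes, among them Plxna1, with 1298 counts against 142 and 328, and Plxnc1, with 1615 against 379 and 176. How often it was the highest over all genes was not counted. AAV-GFP replicate 2 also had the lowest share of oligodendrocyte markers of its group, 1.51%.

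The most abundant member of each family per kilobase is given for the AAV groups without a test between genes. Ephb1 led the EphB receptors at 10.9 ± 1.505 after AAV-Cre and 8.90 ± 7.37 after AAV-GFP, and Epha5 led the EphA receptors at 1.06 ± 0.969 and 1.19 ± 0.271. Nrp1, the class 3 semaphorin co-receptor, stood at 3.89 ± 2.16 and 2.37 ± 0.679, and Unc5a led the netrin receptors at 4.26 ± 3.05 and 4.22 ± 4.37. Slit1 led the slits at 0.846 ± 0.710 and 1.33 ± 1.13. For each of these genes the groups overlapped. Ntn3 led the netrins after AAV-Cre at 1.72 ± 1.19 and Ntn4 after AAV-GFP at 2.29 ± 1.05.

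**Figure D5:**
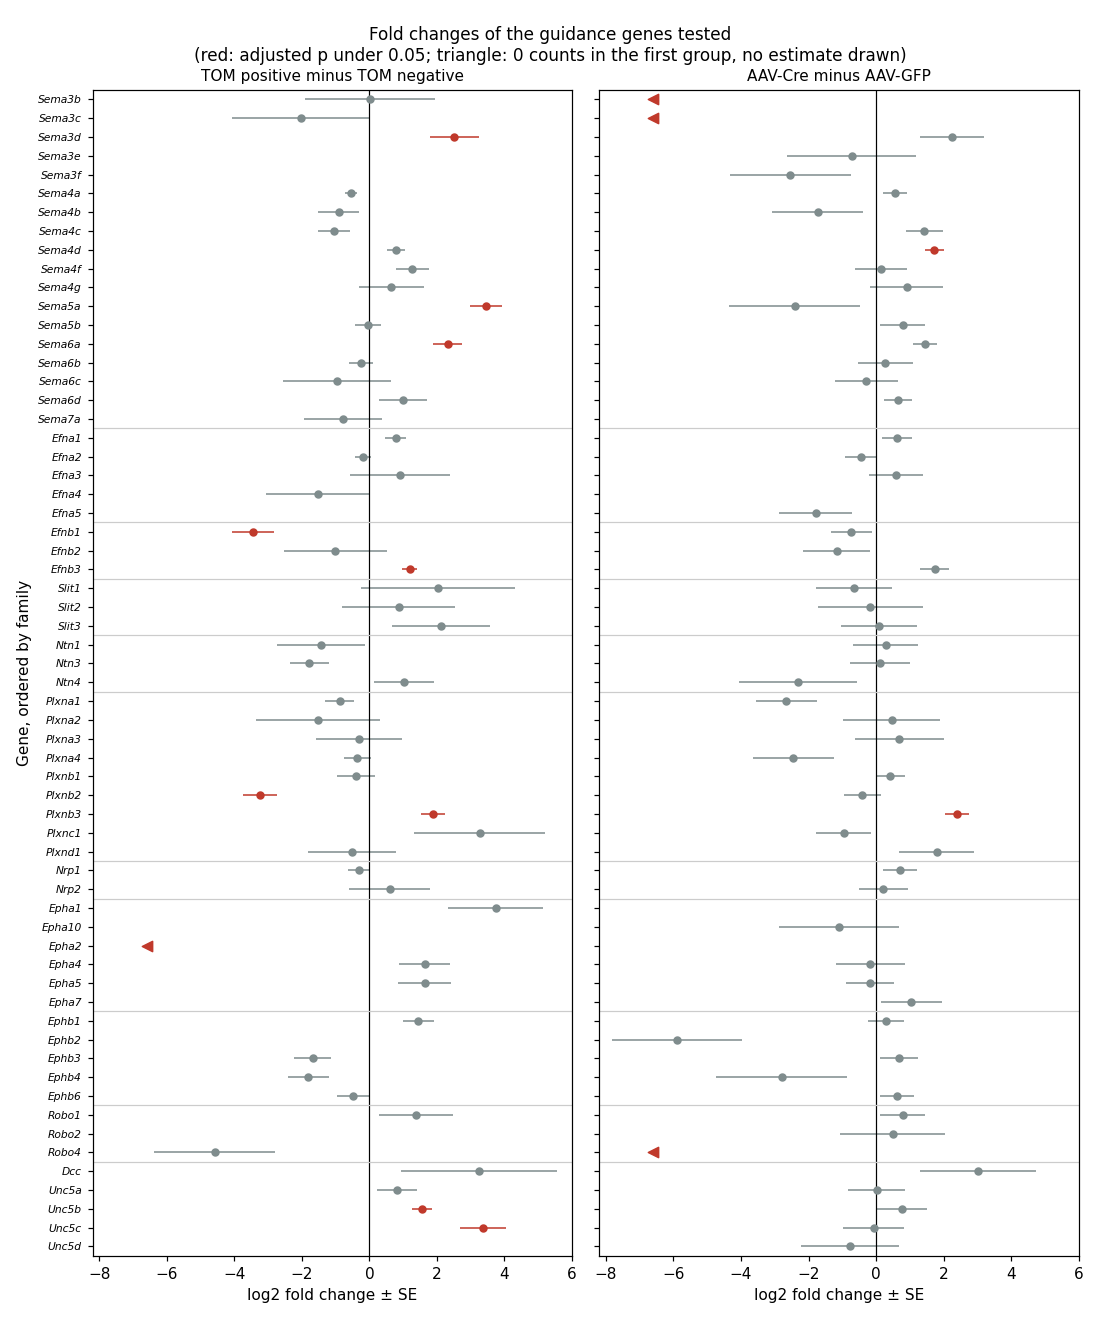
Log2 fold changes ± SE of the guidance genes tested, with TOM positive minus TOM negative on the left and AAV-Cre minus AAV-GFP on the right, and genes in rows grouped by family. Red marks an adjusted p under 0.05, and triangles mark genes with 0 counts in the first group, for which no estimate is drawn. Plxnb3 is the only gene in red on both sides with edgeR, at 1.87 and 2.38.

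Of the other pathway genes, 3 of 31 ligands, receptors and adhesion molecules rose after AAV-Cre and 0 fell with edgeR, where 0.63% of all genes were called higher and 1.97% lower. Ptprd, at 270 ± 40.6 against 78.7 ± 12.0 CPM, had a fold change of 1.78 ± 0.26 (edgeR adjusted p = 0.0258), and Nfasc, at 170 ± 46.3 against 45.3 ± 15.9 CPM, one of 1.91 ± 0.36 (edgeR adjusted p = 0.0436). Dscaml1, a homophilic adhesion molecule, had a fold change of 2.03 ± 0.41, with an edgeR adjusted p just under the threshold. Of 57 effectors 1 rose, the tyrosine kinase gene Abl1, with a fold change of 2.02 ± 0.40 (edgeR adjusted p = 0.0498), and 0 fell, a share of 1.75% against 2.6% of all genes.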

How the data were processed

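The deposited values were raw read counts by gene symbol. FastQC, Trim Galore, STAR, featureCounts and the mm10 build are named, per the submitters' processing notes. For the AAV samples, counting used featureCounts 2.0.1 with GENCODE vM30 and no strand setting, per the file headers. For the TOM samples no such header was at hand. Per the labels, libraries were made with a SMART-Seq kit, and no molecular identifiers are described, so lower bounds cover counting error only. The vM30 annotation belongs to a later assembly than mm10, so gene coordinates are those in the files and promoter coordinates are those of GRCm38.p6, and none was converted.

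The 6 libraries of a comparison were fitted alone, using edgeR 4.0.16 under R 4.3.3 (TMM scaling, filterByExpr at a minimum count of 10, two-sided quasi-likelihood test, Benjamini-Hochberg over all genes tested, threshold 0.05). CPM used TMM-scaled totals and, between genes, the exon lengths in the files. TOM and AAV values were scaled separately and were not tested against each other. Fold changes are log2 ± SE, with the SE derived from the F statistic. Steps were tested on simulated data. Alternatives were RLE size factors, no scaling factors, no count filter, DESeq2 1.42.0, voom with quality weights (limma 3.58.1), a replicate block, marker genes left out and each library left out.

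The genes and lists were chosen with earlier results of these data known. Guidance genes named are those that passed, the highest per kilobase of each family, up to 10 per comparison with separate groups, a mean of at least 10 counts and the smallest p, and those at 0 in a group against at least 10 counts in each library of the other. Others were named after their values were seen. From the pathway lists, up to 5 that passed per direction are named, except for an item that is not reported here. No replicate pair agreed within sampling noise (chi-square per degree of freedom of 44.6 or more).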

Additional observations from a re-analysis of the deposited data

How the results depend on the processing

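Over the alternatives run, no guidance gene that passed, or that was named for separate groups, changed direction, and the others were not followed. Over all genes in the TOM comparison, 3635 passed, against 5521 with DESeq2, 1987 with a replicate block and 1511 to 3547 with 1 library left out. For guidance genes there, 10 passed, against 19 with DESeq2, 18 with voom and quality weights, 8 with the replicate block and 6 to 14 with 1 library left out, fewest without TOM negative replicate 2. In the AAV comparison, 400 genes passed, against 712 without a count filter, 1884 with DESeq2, 0 with the replicate block and 0 to 296 with 1 library left out. For guidance genes there, 5 passed, against 10 with DESeq2, 0 with the replicate block and 0 to 4 with 1 library left out. The cause of these moves was not tested. With the replicate block, edgeR gave 2013 genes and 10 guidance genes an unadjusted p under 0.05 in the AAV comparison, and Epha2 and Sema3d lost their calls in the TOM comparison (edgeR adjusted p of 0.0664 and 0.113). Same-numbered libraries correlated by -0.0543, -0.0295 and 0.0402 in the TOM and by -0.0832, -0.0919 and -0.0682 in the AAV comparison, in deviations from group means, so the numbers were not taken to pair the libraries. Of the 12 libraries, 1 (TOM positive replicate 3) correlated best with its own number. Without scaling factors, AAV fold changes of all genes shifted by 0.16 and 127 genes were higher and 241 lower, against 97 and 303. Genes of a few counts, such as Epha3, Epha6, Robo3 and Sema3a, were removed by the count filter in both comparisons.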
